A study of Mus musculus with 3 samples.

Results

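Oxidative phosphorylation runs on complexes built from nuclear and mitochondrial genes, and the nuclear ones are described here from an iCLIP experiment for ZFP36L1 in mouse thymocytes. The genes were chosen by name: protein-coding genes of the deposited crosslink list whose symbol begins with Nduf, Uqcr, Cox4i, Cox5, Cox6, Cox7, Cox8, Atp5, or Sdh followed by a letter from a to d. The rule found 85 of the 12541 protein-coding genes with a listed position, and they hold 935 of 390506 protein-coding positions. GENCODE has 98 protein-coding names that the rule would take, and 13 of these had no listed position, among them Ndufa2, Uqcrq, Sdhaf1 and Cox4i2.

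In iCLIP, individual-nucleotide resolution crosslinking and immunoprecipitation, ultraviolet light bonds protein to RNA and the bonded base is located by sequencing. Total thymocytes, the T cell precursors of the thymus, came from C57BL/6JBabr mice, received 300 mJ/cm2 of ultraviolet light, and were precipitated with an antibody named for Brf1/2. Cells of the double conditional knockout of Zfp36l1 and Zfp36l2 (DCKO) gave 1 library and wild type (WT) gave 2 from separate experiments. The sources used here do not name the driver of the deletion. The deposited list has 1 value per position and does not say which libraries it pools, so DCKO and WT could not be compared, and replicate errors cannot be given for any value here. Contacts of ZFP36L1, contacts of ZFP36L2 and any background from DCKO cells cannot be told apart in its counts.

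Over the pooled list there were 462392 positions and 814493 counts, and 141986 of the positions are sites, meaning that the authors' false discovery rate (FDR) is below 0.05. Markers of thymocytes were present, with 11 of 12 genes listed (Ptcra was not) and a summed count of 8364. Marker sums were 10 for B cells, 19 for myeloid cells, 14 for erythroid cells and 11 for thymic epithelium. The sum for stroma and endothelium was 313, of which Pecam1 gave 301. RNA levels were not measured in the list, and cells were pooled, so fewer cells with an RNA, less RNA per cell and less contact with the protein cannot be told apart.

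Electrons enter the respiratory chain through complex I (NADH dehydrogenase) and complex II (succinate dehydrogenase), pass to complex III (cytochrome bc1) and complex IV (cytochrome c oxidase), and the proton gradient drives ATP synthase. ZFP36L1 and its relatives are zinc-finger proteins that bind AU-rich elements, classically in 3′ untranslated regions (3′ UTRs), and promote decay of the mRNA. In thymocytes the family restrains the cell cycle during early T cell development.

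The positions with the highest counts in these genes are shown first, because they carry the different settings in which the crosslinks lay. Each is read 5′ to 3′ on the gene's strand from the reference genome of build GRCm38, 29 nt long, with the listed position in capitals.
Cox6a1, chr5:115345703-115345731, minus strand: cagatggcgaccatTactctgatcttcca
Atp5b, chr10:128088259-128088287, plus strand: tgaaaagagcaggcTtaagcaggagtggg
Atp5b, chr10:128090186-128090214, plus strand: ccatgcaggccacaCaagagccttgattg
Cox7c, chr13:86044908-86044936, minus strand: ctaatgccattttgTttttattttgcaga
Ndufa3, chr7:3619617-3619645, plus strand: cttttcttttttctTttcttttgagatag
Ndufs1, chr1:63165597-63165625, minus strand: ttcaggaattgggtGgttgctttaaggaa
Ndufs1, chr1:63166677-63166705, minus strand: tgaatttatttattTatttatttattttt
Ndufv3, chr17:31524529-31524557, plus strand: tttatcatttctacActttatttatttat
Ndufb2, chr6:39602667-39602695, plus strand: aaggccatcatcttTttttttttttctcc

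The Cox6a1 position had a count of 5 and each of the next 7 a count of 4. A position 2 nt downstream of the Ndufv3 one also had a count of 4. The second Ndufs1 window and the Ndufv3 window hold tandem copies of TTTA, in introns. The Cox7c and Ndufa3 windows are rich in T and also intronic, and both Cox6a1 and the second Atp5b window lie in a GENCODE 3′ UTR although the list labels them coding. Ndufb2 is shown because it holds the only sites of these genes labelled 3′ UTR, at 2 adjacent positions with counts of 1 and 2 inside a run of T. A further position with a count of 4, in the 3′ UTR of Atp5a1, is given without sequence. It had TATTTA, the AU-rich core that the family prefers, within 20 nt, and a deposited FDR of 0.48.

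The 85 genes had a summed count of 1475, which is 0.229% of the protein-coding count, while they are 0.678% of the protein-coding genes. The count per gene had a lowest value of 1, a median of 11 and a highest value of 159, against a median of 13 over all protein-coding genes. The median was 6 over 62 genes of the mitochondrial ribosome and 12 over 75 genes of the cytosolic ribosome, 2 other large sets of short housekeeping genes. A few genes carried much of the sum: the top 5 held 31.6% of it and the top 10 held 43.8%. A count of 2 or less was found in 12 genes, 20 or more in 23 and 50 or more in 5. Single positions were shallow. Of the 935, 45.8% had a count of 1, 51.9% a count of 2 and 2.35% a count of 3 or more, against 49.1%, 46.5% and 4.45% of all protein-coding positions.

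**Figure D1:**
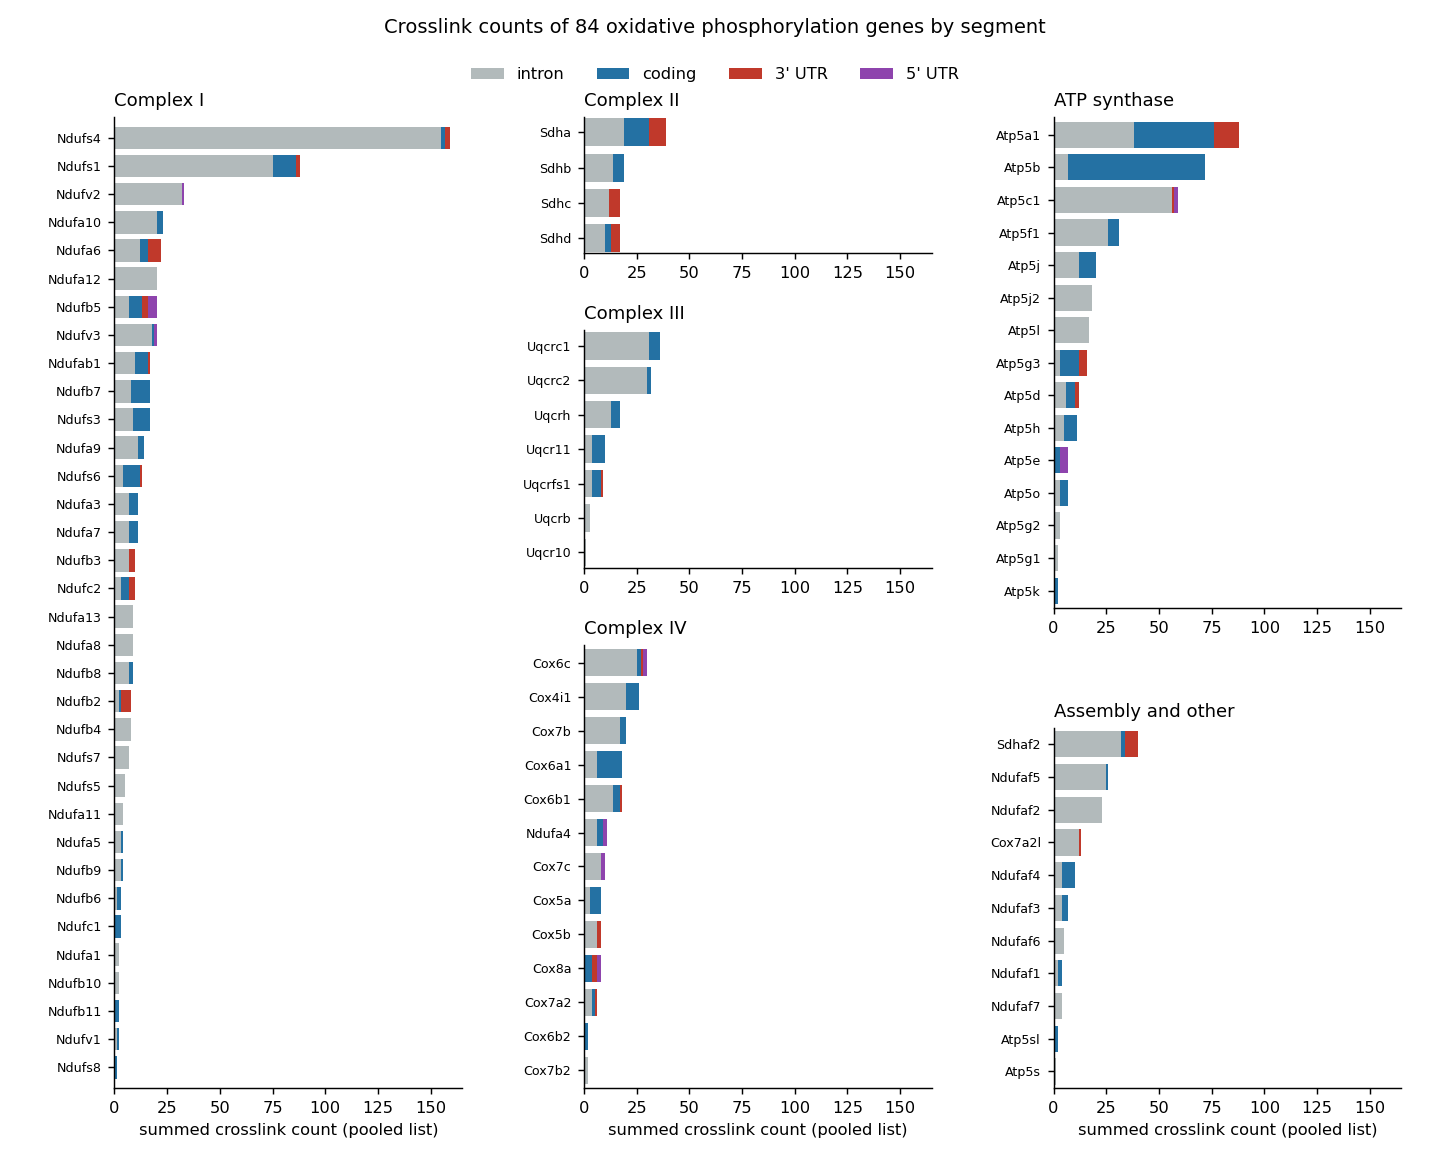
Summed crosslink count (horizontal axis) of 84 of the 85 genes, in panels by respiratory complex and stacked by the authors' segment label. Ndufs4 has the longest bar, at 159, almost all intron, whereas the bar of Atp5b, at 72, is mostly coding.

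By segment, introns held 1037 of the 1475 counts (70.3%), coding sequence 341 (23.1%), 3′ UTRs 77 (5.22%) and 5′ UTRs 20 (1.36%). Over all protein-coding genes the shares were 76.9% intron, 9.13% coding, 13.2% 3′ UTR and 0.809% 5′ UTR. The coding share was thus higher and the 3′ UTR share lower than in the whole list. In the mitochondrial ribosome set 12.01% was coding and 9.27% 3′ UTR, and in the cytosolic ribosome set 39.2% was coding and 4.05% 3′ UTR. With GENCODE's segments in place of the labels, 14.3% of the counts of the 85 genes were coding and 8.41% 3′ UTR, against 5.33% and 14.6% over all genes.

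The share of genes with a site was lower than over all genes in 3′ UTRs and introns, and within counting error of it in coding sequence and 5′ UTRs. A 3′ UTR site was found in 1 of 85 genes (1.18%, 95% Wilson interval 0.208 to 6.37), beside 17.7% of all protein-coding genes, and a 3′ UTR position of any FDR in 24 (28.2%), beside 45.9%. Coding sites were found in 7 genes (8.24%, interval 4.05 to 16.04), beside 13.1%, while 58 genes (68.2%) had a coding position, beside 54.2%. Introns held a site in 30 genes (35.3%, interval 25.97 to 45.9), beside 55.6%, and a position in 77 genes (90.6%), beside 91.8%. These intron shares are not adjusted for length: the median intron length per gene was 5956 nt, against 24439 nt over all matched protein-coding genes. Values per kb of intron are given below. No gene of the 85 had a 5′ UTR site (interval 0 to 4.32%), beside 1.13%, while 9 genes (10.6%) had a listed 5′ UTR position, beside 11.5%. Any site was found in 37 genes (43.5%), beside 63.6%. In the mitochondrial and cytosolic ribosome sets 1.61% and 2.67% of genes had a 3′ UTR site. Intron sites were found in 46.8% and 34.7% of their genes. The low share with a 3′ UTR site is thus not particular to the 85 genes. Of the listed positions themselves, 133 of 935 (14.2%) were sites, against 28.7% over all protein-coding genes. Wilson intervals here cover counting error only.

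**Figure D2:**
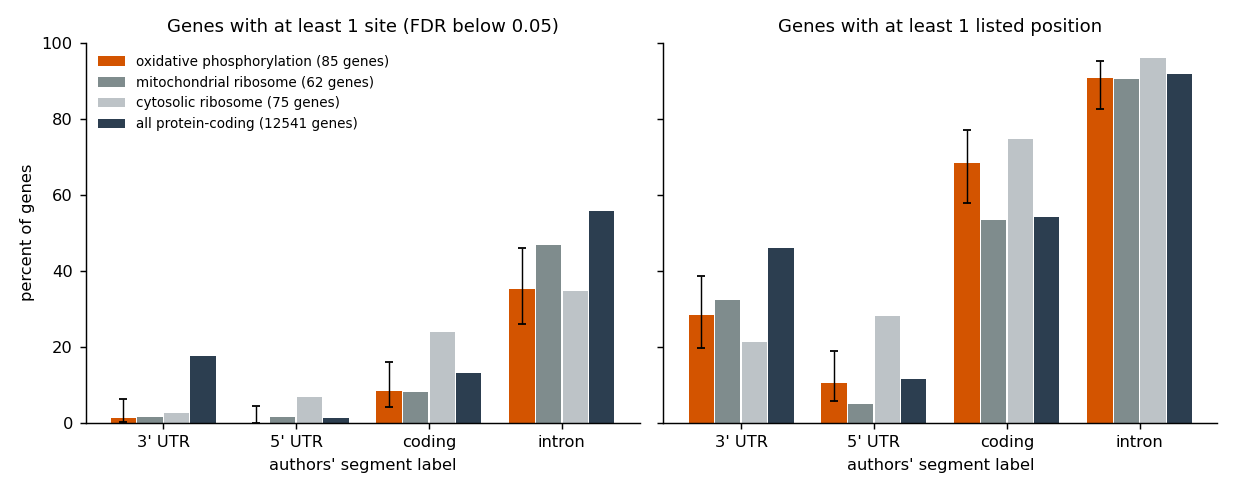
Percent of genes with at least 1 site (left) and at least 1 listed position (right) by the authors' segment label, for the 85 oxidative phosphorylation genes with 95% Wilson intervals, both ribosome sets and all protein-coding genes. The 3′ UTR bars of the 85 genes stand at 1.18% and 28.2%, against 17.7% and 45.9% of all protein-coding genes. Those of the mitochondrial ribosome set stand at 1.61% and 32.3%, and those of the cytosolic ribosome set at 2.67% and 21.3%.

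The 3′ UTRs of these genes are short. Their median length in GENCODE was 201 nt, against 1263 nt over all matched protein-coding genes, and together they span 49.4 kb. Per kb there were 0.0405 sites (exact 95% Poisson interval 0.0049 to 0.146), against 0.731 over all genes, and 0.951 listed positions, against 1.94. Among 49 genes with a 3′ UTR under 250 nt, 10 (20.4%) had a listed 3′ UTR position and 0 had a site, while 13.9% and 2.56% of all genes in that length class did. Of the 14 genes between 250 and 500 nt, 5 had a position (35.7%) and 0 a site, against 27.2% and 7.15% of all genes of that length. Between 500 and 1000 nt, 4 of 12 genes had a position (33.3%) and 0 a site, against 41.7% and 11.7%, and between 1000 and 2000 nt 1 of 3 had a position and 0 a site, against 50.97% and 18.2%. Of the 6 genes with 2000 nt or more, 4 had a position and 1, Ndufb2, had a site, against 63.6% and 30.4%. The share of genes with a position was thus above that of all genes in 3 of these 5 classes and below it in 2, and classes of 3 to 14 genes are too small to order.

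TATTTA was searched on the gene's strand in these 3′ UTRs, and TTTTTT likewise. TATTTA was present in 23 of 84 genes with an annotated 3′ UTR (27.4%), against 52.5% of all genes, at 0.709 copies per kb against 0.685. TTTTTT was present in 14 (16.7%), against 61.2% of all genes. In the mitochondrial and cytosolic ribosome sets it was 37.1% and 25.3%. These shares are not adjusted for 3′ UTR length, and copies of TTTTTT per kb were not computed. Of the 23 genes with TATTTA, 11 (47.8%) had a listed 3′ UTR position and 1 had a site, against 59.1% and 26.8% of the 6378 genes with TATTTA. Sdhaf2 had the most copies, 6 in a 3′ UTR of 5960 nt, and its 3 listed 3′ UTR positions had a count of 2 each and no site. Of the 47 listed 3′ UTR positions of the set, 6 (12.8%) had TATTTA within 20 nt on either side, against 15.4% over all genes. A match is a description of these letters only.

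Complex I gave 35 genes and a summed count of 608, of which 477 were intron, 99 coding, 26 3′ UTR and 6 5′ UTR. Ndufs4, an accessory subunit of the electron-input arm whose loss in mice causes a disease like Leigh syndrome, had the highest count of the whole set. Its 159 counts lay at 107 positions, with 155 counts in introns, and 5 of its positions were sites. Its introns span 97756 nt, so this is 1.59 counts per kb of intron. Ndufs1, the large iron-sulphur core subunit, had 88 counts with 75 in introns, or 2.98 per kb of intron. It held 22 intron-labelled sites, the most of any of the 85 genes and 21.0% of their intron-labelled sites. Of the 22, 6 were adjacent positions with a count of 1 each, at chr1:63151013-63151018 in a run of T. GENCODE gives that stretch as exon, not intron. Ndufv2, an iron-sulphur subunit of the NADH-oxidising module, had 33 counts, 32 of them in introns.

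The other complex I subunits spread widely. Ndufv3 had 20 counts, and a single intronic cluster of 6 sites, at chr17:31524542-31524549, gave 14 of them. Ndufa6 had 22 counts, of which 6 lay in a 3′ UTR of 100 nt, at 3 positions with an FDR of 0.663 each, and 2 of those had TATTTA within 20 nt. Ndufb2 had 8 counts, 5 in the 3′ UTR. Its 3′ UTR is 4016 nt long and holds 1 TATTTA, which was not within 20 nt of either site. Ndufa3 had 11 counts and 1 intron site, with a count of 4. At the low end, the core subunit Ndufs8 had a count of 1. Ndufv1, the NADH-binding core subunit, and the accessory subunits Ndufa1, Ndufb10 and Ndufb11 had a count of 2 each. Sites in introns were found in 12 of the 35 genes, beside 55.6% of all protein-coding genes. Coding-labelled sites were found in 2, Ndufs3 and Ndufa9, beside 13.1%. Both are named here after their values were seen. By GENCODE the Ndufa9 site lay in a coding exon, and those of Ndufs3 did not.

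**Figure D3:**
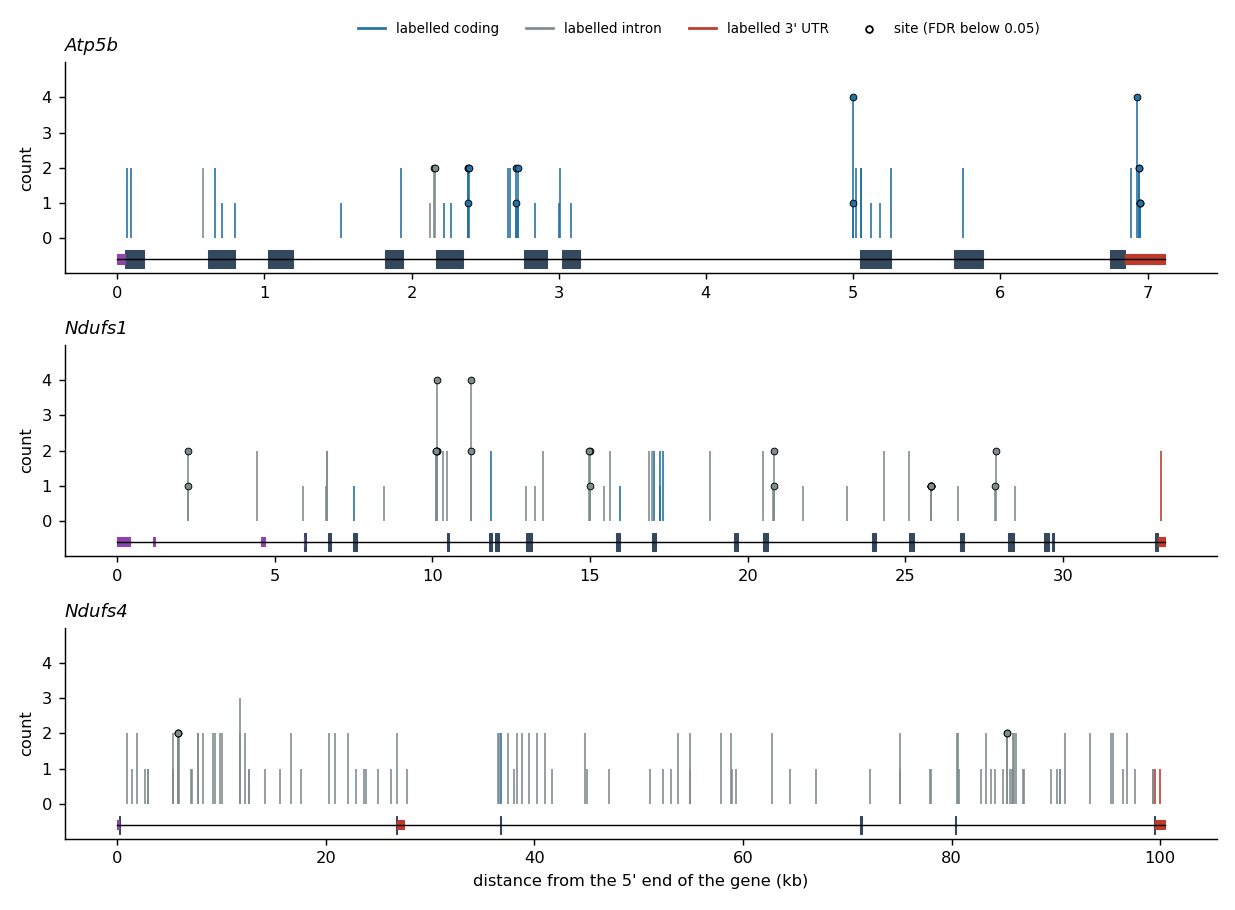
Listed positions along Atp5b, Ndufs1 and Ndufs4 (height, count; horizontal axis, distance from the 5′ end in kb), coloured by the authors' label, with circles at sites and the GENCODE coding exons as thick dark boxes, 3′ UTRs red and 5′ UTRs purple. Sites of Atp5b gather in 4 coding-labelled stretches, the last inside the 3′ UTR box, and at 2 intron-labelled positions. Positions of Ndufs4 are spread over its introns with 5 sites in 2 places.

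Complex II, which feeds electrons from the citric acid cycle, gave 4 genes and 92 counts. Sdha, the flavoprotein that oxidises succinate, had 39 counts, with 19 in introns, 12 coding and 8 in the 3′ UTR. Sdhb, the iron-sulphur subunit, had 19 counts, 14 of them intron. The membrane anchors Sdhc and Sdhd had 17 counts each. By share, 17 of the 92 counts were 3′ UTR (18.5%), against 5.22% for the whole set and 13.2% over all protein-coding genes. They lay at positions of count 1 to 3, with no site. The 3′ UTRs of Sdhc, Sdha and Sdhd are 2636, 833 and 728 nt long, against a set median of 201 nt. That of Sdhb is 91 nt long. Intron sites were found in 3 of the 4 genes, Sdhc being the exception, beside 55.6% of all protein-coding genes.

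Complex III gave 7 genes and 108 counts, 86 of them intron. The core proteins Uqcrc1 and Uqcrc2 had 36 and 32 counts. All 7 intron sites of the complex were in Uqcrc1, 5 of them in a run of T at chr9:108938107-108938111, while Uqcrc2 had 30 intron counts and no site. Uqcrh, the hinge protein for cytochrome c1, had 17 counts and no site. The Rieske protein gene Uqcrfs1, named after its values were seen, held the complex's coding sites, 2 adjacent positions in a GENCODE coding exon.

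Complex IV gave 13 genes and 167 counts, with 111 in introns, 41 coding, 7 in 3′ UTRs and 8 in 5′ UTRs. Cox6c had 30 counts and 7 intron sites, all within 8 nt in a run of T. Cox4i1, which encodes a regulatory subunit, had 26 counts and 4 intron sites, but it lies within a longer GENCODE gene on the same strand, Gm20388, and counts of the pair cannot be told apart. Cox7b had 20 counts and no site. Cox6a1 had 18 counts, 12 of them labelled coding, and its 2 sites, which span 4 nt, lay in the GENCODE 3′ UTR. Cox7c had 10 counts, of which 7 came from an intron cluster of 2 sites. Intron sites were found in 6 of the 13 genes, beside 55.6% of all protein-coding genes.

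ATP synthase gave 15 genes and 365 counts, with 144 coding counts (39.5%), more than any other complex. The subunits of the catalytic head led. Atp5a1, the alpha subunit, had 88 counts, split into 38 coding, 38 intron and 12 3′ UTR, at 50 positions of which 0 were sites. Atp5b, the catalytic beta subunit, had 72 counts, 65 of them labelled coding, with 15 coding-labelled sites and 2 intron sites. Atp5c1, the gamma subunit that turns in the head, had 59 counts, 56 of them intron, and 11 intron sites. By the authors' labels, then, counts were mostly intronic in Atp5c1, mostly coding in Atp5b and divided in Atp5a1. By GENCODE, 24 of the 65 coding-labelled counts of Atp5b lay in coding exons, 13 in the 3′ UTR and 28 elsewhere, while 35 of the 38 of Atp5a1 lay in coding exons. Atp5a1 and Atp5b together gave 103 of the 341 coding counts (30.2%), and Atp5b gave 57.7% of the coding-labelled sites.

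The coding-labelled sites of Atp5b do not all lie in coding exons. Of its 15, 6 lay in the GENCODE 3′ UTR in a cluster of 26 nt at chr10:128090200-128090225 with a summed count of 11. The others lay between coding exons, in what are called non-coding exons here. These are exons of the gene outside the coding sequence and UTRs of its protein-coding transcripts. The only TATTTA of that 3′ UTR begins 15 to 40 nt downstream of the 6 sites, and the stretch is shown because the other 4 sites in GENCODE 3′ UTRs, of Cox6a1 and Ndufb2, had no TATTTA within 50 nt.
Atp5b, chr10:128090218-128090247, plus strand, TATTTA in capitals: atgtgatgttctctctgaagagTATTTAaa
The cluster begins in the second Atp5b window printed above. Over the set, 202 coding-labelled positions fell on GENCODE coding sequence at 124, on 3′ UTR at 23, on 5′ UTR at 8 and on non-coding exons at 46. Of the 26 coding-labelled sites, 5 were in coding exons, 8 in 3′ UTRs, 2 in 5′ UTRs and 11 in non-coding exons. Counting sites by GENCODE segment, 3 of 85 genes held a 3′ UTR site (3.53%), beside 20.1% of all genes, namely Atp5b, Cox6a1 and Ndufb2, and 3 held a coding site, beside 6.99%. A site of Atp5j alone (1 gene of 85) lay in a GENCODE 5′ UTR, beside 1.86%, and 29 held one in a GENCODE intron, beside 52.8%.

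Per kb of coding sequence the 85 genes had 6.48 counts by label, against 2.37 over all genes, and 3.95 against 1.38 where label and GENCODE both said coding. The cytosolic ribosome set had 11.1 and 4.68, and the mitochondrial ribosome set 2.08 and 1.06. Atp5b had 40.9 coding-labelled counts per kb of coding sequence, and 15.1 where GENCODE also said coding. Cox6a1 had 35.4 by label, but 0 of its 12 coding-labelled counts lay in a GENCODE coding exon and 9 lay in the 3′ UTR. Atp5a1 had 22.9 by label and 21.1 where both said coding. Near-identical copies affect these values. Of the 32-nt words of the coding sequences of the 85 genes, 88.6% occurred once in the genome, against 96.4% over all genes. In the cytosolic ribosome set it was 35.3%. Among the 85 genes 13 were under 50%, Cox7c, Atp5l and Atp5h among them. The sources used here do not say how reads with several matches were treated, so counts of those 13 genes are uncertain. For Atp5b the share was 96.4% and for Atp5a1 100%.

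The assembly factors and other names that are no subunit, 11 genes, had 135 counts, 112 of them intron. Sdhaf2, which attaches the flavin to Sdha, had 40 counts with 32 in introns and 6 in the 3′ UTR. Ndufaf5, a methyltransferase-like factor that hydroxylates a complex I subunit, had 26 counts and 2 intron sites. Ndufaf2, another complex I assembly factor, had 23 counts, all intronic. Its introns span 152931 nt, so it had 0.150 counts per kb of intron, against 0.614 over all genes.

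Intron counts of the 85 genes followed intron length loosely. Spearman's rho between the 2 was 0.549 across 85 genes, which all share the same pooled list and are not replicates. Introns of the set had 0.821 counts per kb, against 0.614 over all genes. Of the 85 genes, 58 were above this pooled all-gene value. The share of all protein-coding genes above it was not computed, so the 58 cannot be read as a trait of the set. Sites per kb of intron were 0.0831 (exact Poisson interval 0.068 to 0.101), against 0.109. For Atp5o the length is that of the longer of 2 overlapping GENCODE genes of that name, 242055 nt. Without Atp5o there were 1.01 counts and 0.102 sites per kb (interval 0.0832 to 0.123), an interval that includes the all-gene value for sites. Over 90% of the count was intronic in 26 genes, no count was intronic in 8, and 21 genes had more coding than intron counts. Shares of all protein-coding genes in these classes were not computed, so whether the set differs in them is not known.

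**Figure D4:**
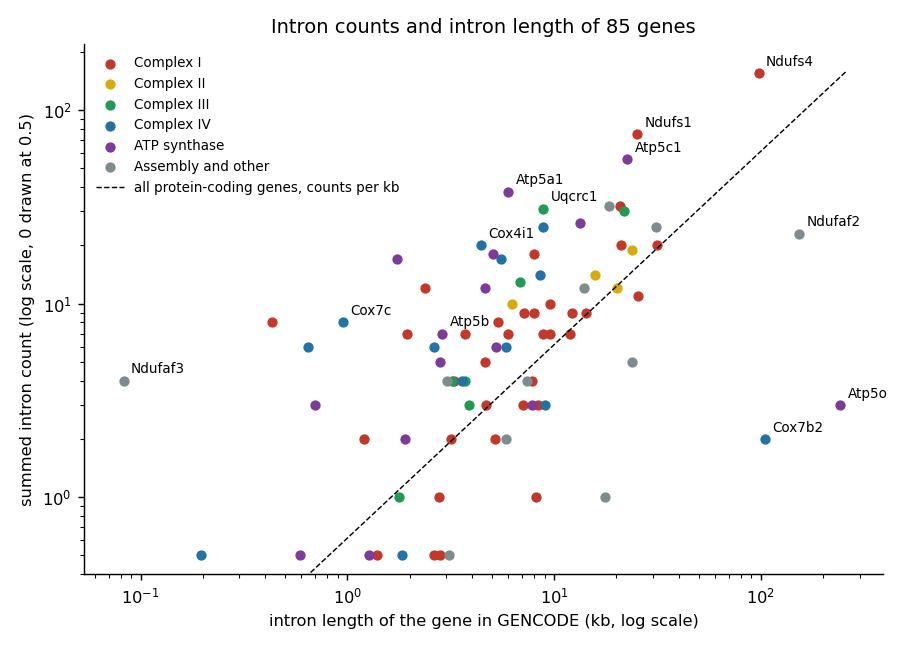
Summed intron count against intron length for the 85 genes, both on log scales, coloured by complex, with the all-gene density of 0.614 counts per kb as a dashed line. Ndufs4, Ndufs1 and Atp5c1 lie above the line, and Ndufaf2, Cox7b2 and Atp5o well below it.

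The base at the listed intron positions was T in 61.0%, against 60.3% over all genes, and at intron sites in 64.8%, against 69.4%. TATTTA lay within 20 nt of 18 of the 105 intron sites (17.1%, Wilson interval 11.1 to 25.5), against 22.1% over all genes. TTTTTT was near 37.1% of the sites, against 34.6%. Neighbouring sites are not independent, so sites within 15 nt were also joined, which gave 43 intron clusters in 30 genes. Of these, 3 held 3 tandem copies of TTTA, 5 a run of at least 10 T and 2 a run of 5 TG copies, while 33 held none of them, shares of 6.98%, 11.6%, 4.65% and 76.7% against 5.74%, 12.4%, 7.11% and 74.8%. These shares lie within counting error of those of all genes. TATTTA was near 6 clusters, in 5 genes: Ndufv3, Ndufs1, Ndufa12, Ndufv2 and Ndufaf6.

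A sizeable share of the intron sites lay close to the 3′ end of an intron. Of the 95 intron sites inside a GENCODE intron, 29 (30.5%, interval 22.2 to 40.4) lay within the 50 nt before an exon, in 13 genes, against 10.2% (9.97 to 10.4) of all protein-coding intron sites. That stretch makes up 1.60% of the intron length of the 85 genes (1.97% without Atp5o), against 0.956% over all genes. Counting every listed intron position, 102 of 622 (16.4%) lay there, against 7.82%. Counting each cluster once, 14 of 40 (35.0%) did, against 11.3%. The first 50 nt of introns held 3.70% of the listed positions, against 2.86%. In the mitochondrial ribosome set 28.9% of intron sites and 12.8% of listed intron positions lay in the last 50 nt, which make up 1.83% of its intron length. In the cytosolic ribosome set these were 31.3% and 35.2%, with 6.88% of the intron length. The measure was chosen after the positions had been seen.

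Genes with short introns hold more of this stretch, so the sites were also split by intron length of the gene. Where introns of a gene sum to under 5 kb, 13 of 19 sites of the set (68.4%, interval 46.0 to 84.6) lay before an exon, against 41.7% of all genes' sites. Between 5 and 20 kb it was 10 of 32 (31.2%, interval 17.95 to 48.6), against 19.2%, and from 20 kb it was 6 of 44 (13.6%, interval 6.40 to 26.7), against 8.80%. The set's share was above that of all genes in each class, by more than the counting interval only in the shortest. Sites of a cluster are not independent, so these intervals are too narrow. The 29 sites fell before 14 exons, and all 14 introns end in AG, the usual acceptor. The last 30 nt of 5 of these introns are shown, from the 6 with a summed site count of 4 or more, with the closing AG in capitals.
Cox4i1, chr8:120669279-120669308, plus strand: gaggtataagggtttttttttgtctttcAG
Cox7c, chr13:86044909-86044938, minus strand: ttctaatgccattttgtttttattttgcAG
Atp5b, chr10:128085412-128085441, plus strand: agagatctgaaatatttcttcttaaactAG
Atp5c1, chr2:10056807-10056836, minus strand: tgctcttgtttttcctaatataataaccAG
Sdhb, chr4:140966465-140966494, plus strand: ccctccctccctttttgtggctttttcaAG
Cox4i1 had 4 sites with a summed count of 7, between 12 and 21 nt from the exon, and Cox7c had 2 sites with a count of 7 at 12 and 14 nt. The Cox4i1 sites cannot be told from sites of Gm20388. The Atp5b and Sdhb introns had 2 sites each with a summed count of 4. Those of Atp5b lay between 9 and 15 nt from the exon, and those of Sdhb between 39 and 42 nt. Atp5c1 had 5 such sites before 2 exons, between 37 and 50 nt away. The sites of Sdhb and Atp5c1 thus lie upstream of the 30 nt printed for these genes. Ndufs1 had 8 listed positions and 13 counts in this stretch but no site there. Without Atp5c1 the share was 28.6%.

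**Figure D5:**
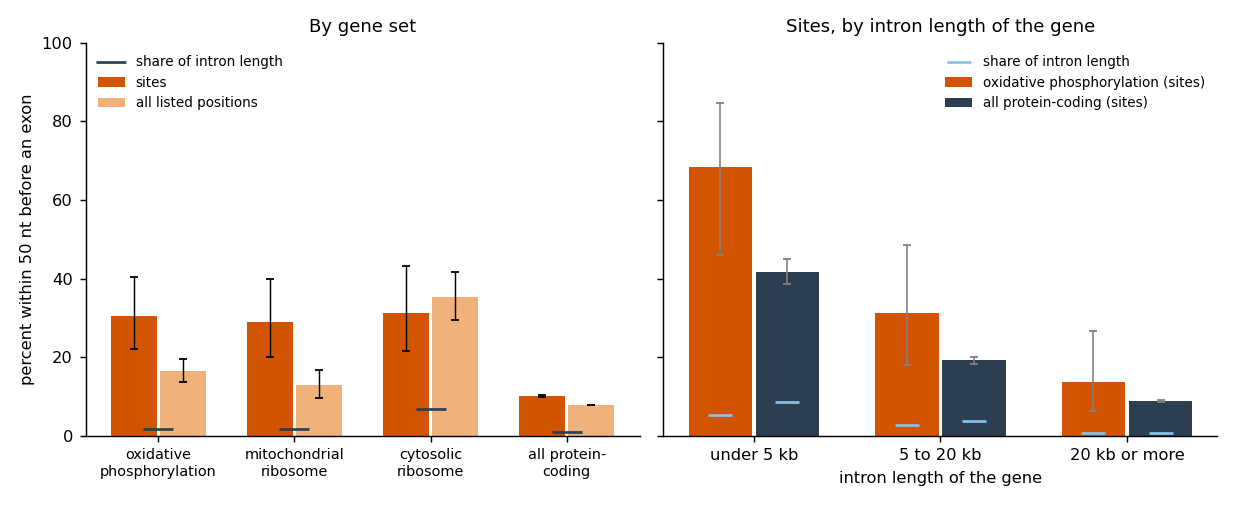
Percent of intron positions within 50 nt before an exon, by gene set for sites and all listed positions (left), and for sites by intron length of the gene (right), with 95% Wilson intervals and horizontal marks for the share of intron length that this stretch makes up. The bar for sites of the 85 genes stands at 30.5%, against 10.2% of all protein-coding genes.

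Genes that serve the same pathway but fall outside the name rule were listed too. Of 41 electron carriers, further assembly factors and inhibitors, 34 had a listed position, with 627 counts, and a 3′ UTR site was found in 3 of the 41 and an intron site in 13. The shares of all protein-coding genes with such sites are the 17.7% and 55.6% given above. Those shares count only genes with a listed position, whereas the 41 include genes without one. The lists are short, and no interval was computed for them. Cox16, a complex IV assembly factor, had 135 counts, 131 of them intron. The complex III assembly factors Uqcc1 and Ttc19 had 56 and 46 counts. Cycs, which encodes somatic cytochrome c, had a count of 1. The 3 genes with 3′ UTR sites, named after their values were seen, serve complex IV: Cox19, a copper-handling factor, with 6 sites, Coa5 with 5, and Cox15, which makes haem A, with 2.

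All 7 regulators of mitochondrial genes were listed, with 498 counts, and 2 had a 3′ UTR site, beside 17.7% of all genes. Nrf1, a transcription factor for respiratory genes, had 285 counts, 31 of them in the 3′ UTR at positions that included 10 sites, and 243 in introns. Lrpprc, which stabilises mitochondrial mRNAs, had 73 counts, and Gabpa, another transcription factor for respiratory genes, had 53, neither with a 3′ UTR site. Esrra, a nuclear receptor named after its values were seen, had 3 such sites. All 13 citric acid cycle genes were listed, with 599 counts, and 3 had a 3′ UTR site, a share near the 17.7% of all genes. Ogdh and Dlst, subunits of the 2-oxoglutarate dehydrogenase complex, had 157 and 83 counts with 9 and 2 such sites, and Suclg2, of succinyl-CoA ligase, had 67 counts, all intron. Over genes with a listed position, counts per gene had a median of 9 (rounded down), 40 and 33 in these 3 lists, against 13 over all protein-coding genes.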

How the data were processed

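The deposited list gives stranded positions with a segment label and gene name. Per the submitters' processing notes, Bowtie and build GRCm38 were used; versions, filters, the treatment of reads with several matches and the pooling of libraries are not given in the sources used here. Each position has a whole-number count, signed by strand, which is treated here as a score. The deposited extended score sums counts within 15 nt. The deposited p-value and FDR score are the authors': FDR exceeded 1 at 4 positions of the 85 genes and was 0 at 112, and 34 of the 133 sites had a p-value of 0.5 or more.

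Positions count from 0 in the list and from 1 here, since 876 coding-labelled positions fell on the first base of a coding exon and 26 one past its last base under that reading. Names were matched to GENCODE vM21 on GRCm38.p6: 11716 of 12541 by symbol and 533 by synonym, and for the 85 genes 84 and 1. Sequences come from the RefSeq copy of that assembly. Functions were tested on simulated data, where 800 segments, 500 motif windows, 200 splice distances and 930 cluster assignments were all recovered. Scripts used Python 3.11.15, pandas 2.3.3 and scipy 1.17.1.

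A comparison of DCKO with WT had been planned for the case of counts per library and was not run. Named genes are those with a 3′ UTR site, the 3 with the highest count per complex and among assembly factors, those holding the 10 highest positions, the 5 highest by 3′ UTR and by coding count, and 3 per further list; others were named after their values were seen. Members and lists were chosen with earlier results of these data known. A few genes and sequences that these rules would name are not reported here.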

Additional observations from a re-analysis of the deposited data

How the results depend on the processing

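No paired analysis was possible because the list has no column per library. Depth is shallow, with sites of the 85 genes resting on summed counts of 2 to 14 within 15 nt (median 5), and the list has no replicate. Of the alternatives tried, 33 stayed close and 28 moved, a count of genes by more than 1.5 times, or a share or density out of its counting interval.

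Taking all listed positions in place of sites, 24 genes had a 3′ UTR position (0.951 per kb), 77 an intron position and 58 a coding position, 8.15% of intron positions had TATTTA near, and 16.4% lay before an exon. With a count of 3 or more required, 0 genes had a 3′ UTR site (0 per kb), 8 an intron site and 3 a coding site, and the shares were 13.0% 3′ UTR, 28.6% coding, 58.4% intron and 27.3% near TATTTA. With GENCODE segments there were 3 genes with a 3′ UTR site (0.202 per kb) and 3 with a coding site, and the shares were 8.41% 3′ UTR, 14.3% coding and 65.02% intron. Counts at FDR below 0.01 were 1.42% 3′ UTR and 77.3% intron, and at sites 1.21% and 77.3%. Without Atp5b the coding share was 19.7%, and without Ndufs4 the intron share was 67.0%. Without Atp5o there were 0.102 intron sites per kb. Outside soft-masked sequence 10.5% of intron sites had TATTTA near, against 10.3% over all genes. Alternatives chosen after seeing the data were lengths of unique 32-nt words, clusters counted once, leaving out Atp5o, segment shares over sites, and every alternative for the stretch before an exon.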
